A study of Mus musculus with 12 samples.

Results

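A set of 10 genes of the extracellular matrix were followed in mouse mesenchymal stem cells from adipose tissue, grown either as attached single cells (2D) or as spheroids (3D), which are rounded cell aggregates. They are the collagen IV genes Col4a1 (ENSMUSG00000031502) and Col4a2 (ENSMUSG00000031503), the collagen VI genes Col6a1 (ENSMUSG00000001119), Col6a2 (ENSMUSG00000020241) and Col6a3 (ENSMUSG00000048126), and the fibronectin gene Fn1 (ENSMUSG00000026193). The others are the matricellular genes Sparc (ENSMUSG00000018593), Thbs1 (ENSMUSG00000040152), Postn (ENSMUSG00000027750) and Tnc (ENSMUSG00000028364). The 10 genes were named by gene ID, with no threshold on their values but with earlier results of these data known, and are 10 of 56748 gene IDs in the deposited tables. RNA was sequenced from 12 libraries in 4 groups of 3, which were 2D cells at 0 h, 2D cells at 24 h, spheroids at 0 h and spheroids at 24 h. Per the labels' protocols, both cultures were kept in DMEM with fetal bovine serum and antibiotics, and no group carried a drug or a genetic change. The labels name no mouse strain, passage, age of the spheroids at 0 h or number of cells per spheroid. Nor do they say if a group's libraries came from separate cultures. The p-values therefore rest on the spread among these libraries alone, and that spread may be technical. The tables used here pair no other gene IDs with names. The mesenchymal label was therefore not checked against cell type markers, and lists of other matrix genes and receptors were not tested.

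Collagen IV is the network-forming collagen of basement membranes, and its common form is a trimer of α1 and α2 chains from Col4a1 and Col4a2. Collagen VI forms beaded microfibrils around cells, and its classical trimer needs the 3 chains from Col6a1, Col6a2 and Col6a3. Fibronectin is assembled by cells into fibrils that bind cell-surface integrins and other matrix proteins. Matricellular proteins are secreted into the matrix but act mainly as modulators of adhesion and signalling. Of these, SPARC binds collagen, thrombospondin 1 binds CD36, CD47 and latent TGF-β, periostin is made where connective tissue is remodelled, and tenascin-C is made where tissue is remodelled or injured.

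The positions and sequences given here are from RefSeq on the mouse build GRCm38.p6, whereas the counts were made on GRCm39, so they serve only for orientation. Col4a1 (chromosome 8, 11198423 to 11312889) and Col4a2 (chromosome 8, 11312805 to 11449287) lie head to head, and their gene spans share 85 bases. Col6a1 (chromosome 10, 76708792 to 76726044) and Col6a2 (chromosome 10, 76595756 to 76623630) lie 85162 bases apart on the same strand, while Col6a3 is on chromosome 1 (90766860 to 90844001). Fn1 is also on chromosome 1 (71585473 to 71653280). The 4 matricellular genes are on chromosomes 11 (Sparc, 55394159 to 55420080), 2 (Thbs1, 118111876 to 118127133), 3 (Postn, 54359267 to 54391041) and 4 (Tnc, 63959785 to 64047015).

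Promoter windows were found for 8 of the 10 genes, all but Fn1 and Thbs1. Those of the collagen VI genes are printed because Col6a1 and Col6a2 moved together in the data, and that of Postn because it had the largest change over time. Each runs 5′ to 3′ along the gene's strand and ends just before the outermost start in the RefSeq table. That of Col6a3 is shorter, since bases inside the annotated gene were left out. The start site of its window (90843971) lies inside the gene, and the bases left out are those next to that site. For Col4a1, whose window is not printed, the start site used (11312826) also lies inside the annotated gene. Capitals mark matches on either strand to 5 motifs searched in the 250 bases before the start site of each window. The TATA box was searched as TATAAA. The motif searched for the GC box, bound by SP1 and its relatives, was GGGCGG. Also searched was the CCAAT box, under those letters. For the AP-1 factors the letters searched were TGANTCA. Sites of the TEAD factors were searched for as GGAATG. The matched motifs do not overlap each other.
Col6a1 promoter, chr10:76726045-76726294, minus strand: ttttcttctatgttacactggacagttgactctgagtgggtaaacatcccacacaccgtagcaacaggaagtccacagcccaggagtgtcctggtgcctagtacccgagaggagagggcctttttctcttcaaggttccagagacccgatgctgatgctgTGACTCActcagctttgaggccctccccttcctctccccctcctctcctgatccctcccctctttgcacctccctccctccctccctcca
Col6a2 promoter, chr10:76623631-76623880, minus strand: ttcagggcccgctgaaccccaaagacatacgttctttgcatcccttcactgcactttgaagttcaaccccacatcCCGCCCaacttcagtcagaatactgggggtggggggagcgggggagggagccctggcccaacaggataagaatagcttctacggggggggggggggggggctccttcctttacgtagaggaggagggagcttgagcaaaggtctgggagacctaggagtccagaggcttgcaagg
Col6a3 promoter, chr1:90844002-90844221, minus strand: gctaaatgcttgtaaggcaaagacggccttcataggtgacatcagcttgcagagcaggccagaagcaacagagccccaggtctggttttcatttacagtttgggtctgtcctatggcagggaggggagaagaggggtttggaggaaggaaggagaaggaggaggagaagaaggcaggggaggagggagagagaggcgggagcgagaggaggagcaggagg
Postn promoter, chr3:54359017-54359266, plus strand: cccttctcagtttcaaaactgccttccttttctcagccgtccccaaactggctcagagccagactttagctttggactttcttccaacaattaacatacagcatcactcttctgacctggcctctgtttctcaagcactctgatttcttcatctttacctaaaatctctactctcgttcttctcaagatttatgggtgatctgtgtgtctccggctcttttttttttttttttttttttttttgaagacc
The Col6a1 window held 1 AP-1 match, 90 bases before the start, and 6.75% of 32851 mouse promoter windows of the same length hold one. In the Col6a2 window there was 1 GC box, 175 bases before the start, against 32.7% of windows. No match was found in the Col6a3, Postn and Sparc windows. The windows of Col4a1 and Col4a2 each held a CCAAT match, which 33.8% of windows hold. That of Col4a2 also held 2 GC boxes, 192 and 48 bases before the start. The Tnc window held 1 TATA box, found in 12.4% of windows, and 1 GC box. A TEAD match, found in 12.6% of windows, was in none of the 8. These matches describe letters only.

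Sequencing depth was ample for every one of the genes. Library totals lay between 10182590 and 17109609 expected counts, which are read counts that RSEM estimates and that need not be whole. The lowest count of any of the 10 genes was 4224, for Col4a2 in a spheroid library, and the highest was 178792, for Thbs1 in a 2D library at 24 h. All 10 passed the filter on low counts, which left 14338 genes to test. Together they took between 1.80% and 3.78% of all counts in a library. Levels below are in CPM, counts scaled to library size and by TMM, a factor that sets libraries to a common composition. Apart from some ratios between genes given by counts below, levels are compared between genes only in TPM, which also divides by gene length.

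Per length, Sparc stood far above the other 9 genes in every group. In attached cells its mean went from 8560 ± 56.0 TPM at 0 h to 11292 ± 325 TPM at 24 h. In spheroids it was 8900 ± 263 TPM at 0 h and 10481 ± 286 TPM at 24 h (SD, n = 3 here and below). By TPM it ranked between 1 and 4 among all gene IDs in every library. In 2D cells Thbs1 came next at both times, with 1951 ± 363 TPM at 0 h and 3411 ± 776 TPM at 24 h. In spheroids at 0 h Fn1 was second among the 10, at 955 ± 50.9 TPM. In spheroids at 24 h Postn was second, at 3288 ± 350 TPM, and its rank among all genes lay between 16 and 23. Col4a2 had the lowest mean TPM of the 10 in 2D at 0 h (110 ± 23.2), and in spheroids both at 0 h (113 ± 8.56) and at 24 h (116 ± 31.6). For attached cells at 24 h the lowest were Col6a3, with a mean of 262 ± 2.87 TPM, and Col4a2, whose libraries lay between 253 and 280 TPM and overlapped those of Col6a3.

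**Figure D1:**
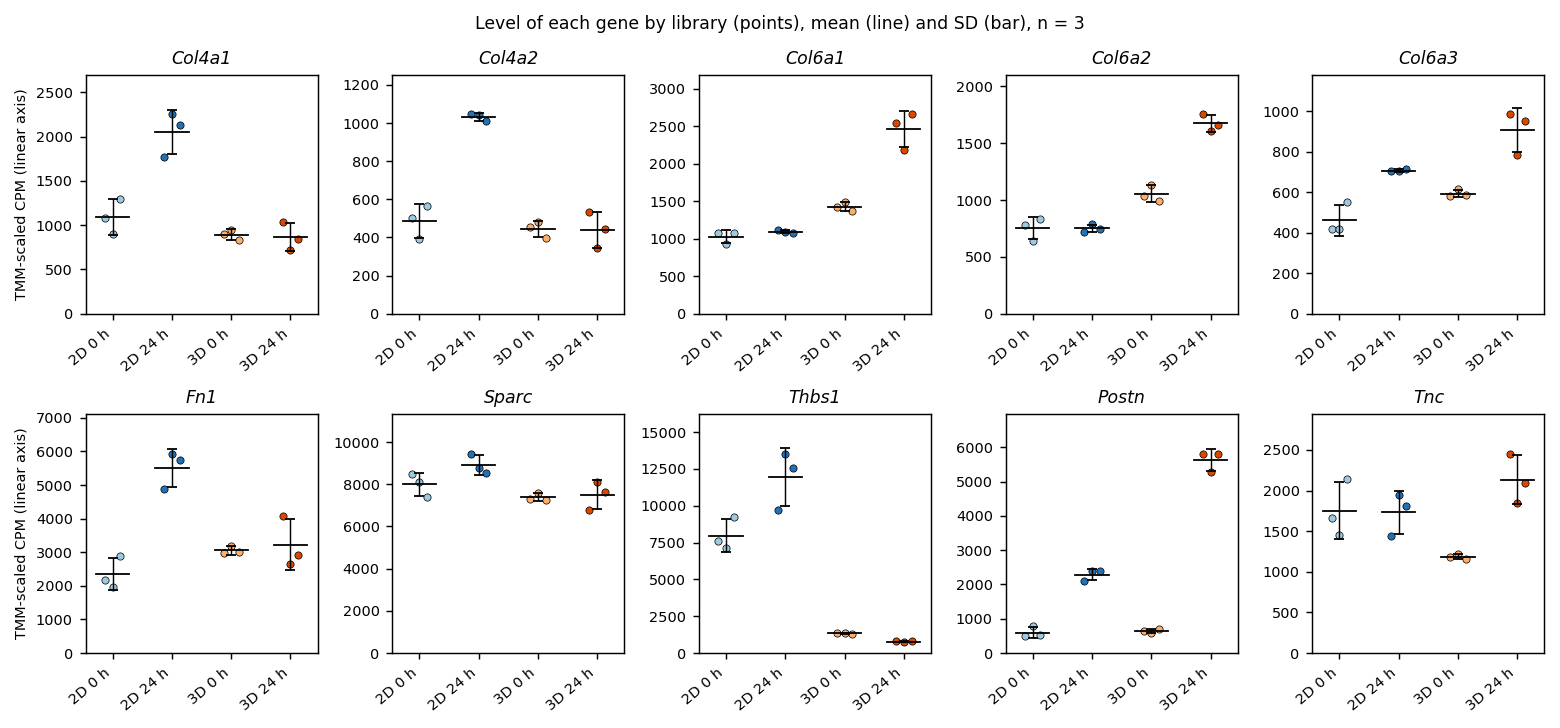
Level of each gene in the 12 libraries, as TMM-scaled CPM on a linear axis that starts at 0, with 1 panel per gene. Points are libraries, the line is the mean and the bar is the SD (n = 3 per group). Thbs1 is at or below 1354 CPM in all spheroid libraries and at or above 7109 CPM in all 2D libraries, and Postn is highest in spheroids at 24 h.

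Spheroids were first compared with attached cells at 0 h, to see how the matrix programme differed at the start. Thbs1 was 5.97-fold lower in spheroids, Tnc was 1.48-fold lower, and the 3 collagen VI genes were 1.28-fold to 1.41-fold higher. Fn1 was 1.30-fold higher. In all, 4 of the 10 genes were higher and 2 lower in spheroids (edgeR quasi-likelihood test, Benjamini-Hochberg adjusted p under 0.05 over all genes tested), where 23.1% of all genes tested were higher and 22.7% lower. Called in either direction were 6 of the 10 and 45.8% of all genes. The libraries of the cultures did not overlap, with spheroids higher, for 4 genes (27.9% of all genes) and, with spheroids lower, for 2 (26.6%). For the 10 genes the median was -0.0010 on the log2 scale, against 0.02 for all genes. In a bulk sample, fewer cells that make a transcript and less transcript per cell cannot be told apart.

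Thbs1 showed the widest gap between the cultures. At 0 h its level was 7586, 7109 and 9219 CPM in the 2D libraries and 1354, 1331 and 1323 CPM in the spheroid libraries. Every spheroid library was far below every 2D library, and the spheroid libraries hardly differed among themselves. The difference was -2.58 ± 0.12 on the log2 scale (SE, with edgeR's adjusted p = 3.7e-11), the 166th lowest fitted value of 14338 genes.

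At 24 h the gap in Thbs1 was wider. The 2D libraries stood at 9730, 13537 and 12591 CPM and the spheroid libraries at 813, 728 and 807 CPM. The 2D libraries spread over a wider range than at 0 h but stayed above all 2D libraries of 0 h, while the spheroid libraries fell below all those of 0 h. Thbs1 was 15.3-fold lower in spheroids at 24 h, or -3.93 ± 0.13 on the log2 scale (SE, with edgeR's adjusted p = 4.0e-13). With the trend on gene length described below removed, the log2 difference was -3.65.

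The collagen VI genes were higher in spheroids at both times. Col6a1 at 0 h was at 1082, 924 and 1073 CPM in 2D and at 1416, 1492 and 1369 CPM in 3D. The cultures did not overlap, and Col6a1 was higher in 3D by 0.47 ± 0.09 on the log2 scale (SE; edgeR adjusted p = 4.7e-04). Col6a2 ranged from 641 to 829 CPM in 2D and from 994 to 1137 CPM in 3D, which is 0.49 ± 0.10 on the log2 scale (SE; edgeR adjusted p = 6.6e-04).

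Col6a3, the third chain, ranged from 418 to 549 CPM in 2D and from 581 to 613 CPM in 3D at 0 h. The libraries did not overlap, but the margin was small, and the difference was 0.36 ± 0.11 (log2, SE; edgeR adjusted p = 0.015). Without 2D 0 h replicate 1, 2D 0 h replicate 2 or 3D 0 h replicate 2 it was 0.29, 0.29 and 0.35, with an adjusted p of 0.078, 0.062 and 0.052 by the same test. Without 2D 0 h replicate 3 it was 0.54 (edgeR adjusted p = 5e-04).

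At 24 h the differences in Col6a1 and Col6a2 were larger. For Col6a3 this depended on the processing. Col6a1 stood at 1112, 1089 and 1082 CPM in 2D and at 2539, 2186 and 2656 CPM in 3D, a 2.25-fold difference (log2 1.17 ± 0.09, SE; edgeR adjusted p = 2.3e-08). Col6a2 ranged from 716 to 785 CPM in 2D and from 1611 to 1754 CPM in 3D, a 2.23-fold difference (edgeR adjusted p = 6.4e-08). The folds of these neighbouring genes thus lay close together. Col6a3 ranged from 702 to 715 CPM in 2D and from 782 to 984 CPM in 3D, which is 1.28-fold (edgeR adjusted p = 0.017). Its adjusted p was 0.051 without 3D 24 h replicate 1 (log2 0.32) and 0.060 without 3D 24 h replicate 3 (log2 0.34). On counts its log2 difference was 0.36 at both times. It went from 0.29 at 0 h to 0.71 at 24 h on the log2(TPM + 1) scale, and from 0.29 to 0.60 with the trend on gene length described below removed.

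Over the 10 genes at 24 h, 4 were higher in spheroids and 5 lower, against 19.6% and 22.8% of all genes tested. In either direction 9 of 10 were called, against 42.5%. Without overlap between libraries, 4 were higher (25.7% of all genes) and 5 lower (27.2%). The 10 genes had a median of 0.03 on the log2 scale and all genes one of -0.0018. Higher were the 3 collagen VI genes and Postn, and lower were both collagen IV genes, Fn1, Thbs1 and Sparc.

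**Figure D2:**
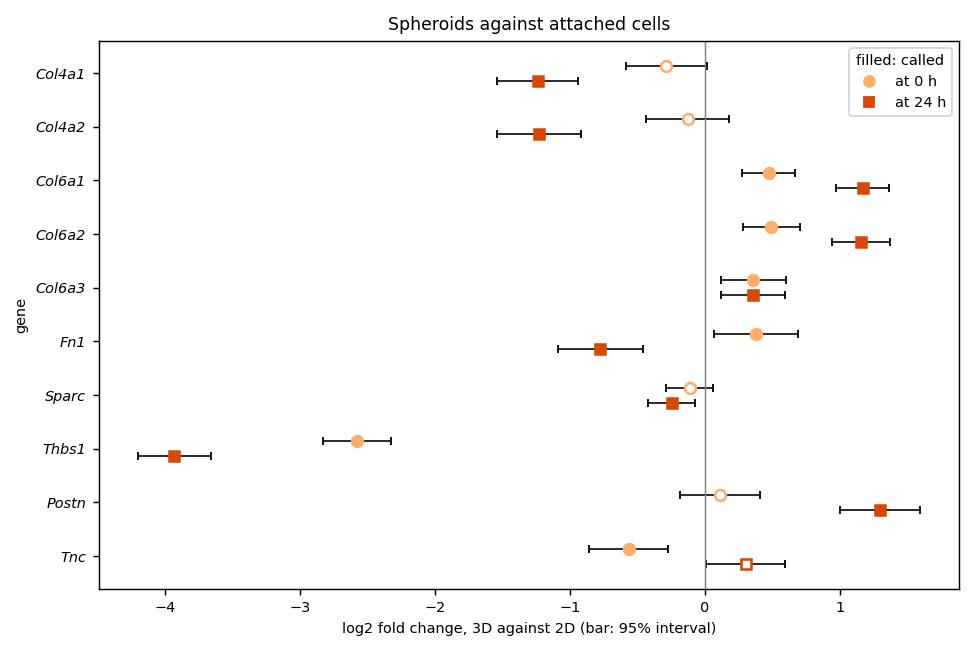
Log2 fold change of spheroids against attached cells for the 10 genes at 0 h (circles) and at 24 h (squares), from the edgeR fit, with 95% intervals. Filled symbols passed an adjusted p of 0.05. Thbs1 lies at -2.58 and -3.93, the collagen VI genes lie to the right of 0 at both times, and Fn1 lies to the right at 0 h and to the left at 24 h.

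Collagen IV did not separate the cultures at 0 h but did at 24 h. Col4a1 stood at 1079, 895 and 1297 CPM in 2D and at 904, 948 and 833 CPM in 3D at 0 h, and the libraries overlapped. Its log2 fold change was -0.28, with a 95% interval of -0.58 to 0.01 (edgeR adjusted p = 0.11). It was called only without 2D 0 h replicate 2 (log2 -0.41, edgeR adjusted p = 0.025) and with the length trend described below removed (edgeR adjusted p = 0.012). For Col4a2 the interval ran from -0.43 to 0.18 around -0.13 (edgeR adjusted p = 0.50).

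At 24 h Col4a1 was at 1769, 2252 and 2136 CPM in 2D and at 1041, 722 and 845 CPM in 3D, 2.36-fold lower in spheroids (log2 -1.24 ± 0.14, SE; edgeR adjusted p = 2.0e-06). Col4a2 ranged from 1010 to 1045 CPM in 2D and from 344 to 533 CPM in 3D, 2.34-fold lower (log2 -1.23 ± 0.15, SE; edgeR adjusted p = 3.0e-06). On counts the folds of both chains were nearly the same. On the log2(TPM + 1) scale Col4a1 was at -0.81 and Col4a2 at -1.24. With the length trend removed they were at -0.97 and -0.98.

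Fn1 changed side between the times. At 0 h it stood at 2186, 1976 and 2888 CPM in 2D and at 2965, 3195 and 3002 CPM in 3D. All spheroid libraries were above all 2D libraries, yet 2D replicate 3 lay just below them. Fn1 was higher in spheroids by log2 0.38 ± 0.15 (SE; edgeR adjusted p = 0.045), a call that ended without any 1 of 7 of the 12 libraries, although the log2 difference then stayed between 0.26 and 0.42. Its adjusted p was 0.13 without 2D 0 h replicate 1, 0.18 without 2D 0 h replicate 2, 0.068, 0.11 and 0.084 without 3D 0 h replicates 1, 2 and 3, and 0.060 and 0.076 without 2D 24 h replicate 3 and 3D 24 h replicate 3. Without 2D 0 h replicate 3 the difference in Fn1 was 0.59 (edgeR adjusted p = 0.0023).

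At 24 h Fn1 was at 4870, 5934 and 5735 CPM in 2D and at 4083, 2664 and 2925 CPM in 3D. Spheroid replicate 1 stood well above the other spheroid libraries but below all 2D libraries. Fn1 was 1.71-fold lower in spheroids (log2 -0.77 ± 0.15, SE; edgeR adjusted p = 4.2e-04), and log2 -0.49 on the TPM values and -0.51 with the length trend removed.

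Among the other matricellular genes, Postn did not separate the cultures at 0 h. It stood at 486, 778 and 512 CPM in 2D and at 632, 580 and 708 CPM in 3D, and 2D replicate 2 was above every spheroid library. The log2 difference was 0.11, with a 95% interval of -0.18 to 0.41 (edgeR adjusted p = 0.54). It was 0.35 without 2D 0 h replicate 2 (edgeR adjusted p = 0.0079). At 24 h Postn was at 2099, 2384 and 2387 CPM in 2D and at 5815, 5274 and 5805 CPM in 3D. No libraries overlapped, and Postn was 2.46-fold higher in spheroids (log2 1.30 ± 0.14, SE; edgeR adjusted p = 9.7e-07).

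Tnc was at 1664, 1452 and 2144 CPM in 2D and at 1182, 1217 and 1158 CPM in 3D at 0 h. All spheroid libraries were lower (log2 -0.56 ± 0.14, SE; edgeR adjusted p = 0.0031), a call that ended with limma on the TPM values (log2 -0.41, limma adjusted p = 0.079). Without 2D 0 h replicate 3 the difference in Tnc was -0.35 (edgeR adjusted p = 0.030). At 24 h the cultures overlapped, with 1435, 1941 and 1812 CPM in 2D and 2453, 1847 and 2098 CPM in 3D. The log2 difference at 24 h was 0.30, with a 95% interval of 0.01 to 0.59 before adjustment (edgeR adjusted p = 0.091). Across the alternatives its adjusted p ran from 0.00031 to 0.28, so its side of the threshold depends on the processing.

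Sparc differed little between the cultures at either time. It ranged from 7393 to 8474 CPM in 2D and from 7273 to 7605 CPM in 3D at 0 h (log2 -0.11, 95% interval -0.29 to 0.06; edgeR adjusted p = 0.28). At 24 h it ranged from 8531 to 9451 CPM in 2D and from 6784 to 8115 CPM in 3D, 1.19-fold lower in spheroids (log2 -0.25 ± 0.08, SE; edgeR adjusted p = 0.024). This call ended under 6 of 11 other settings and without any 1 of 8 libraries, with adjusted p-values of up to 0.35. The log2 difference was -0.11 on the log2(TPM + 1) scale, -0.12 with library totals, and -0.15 without 2D 24 h replicate 1 or 3D 24 h replicate 1. With the length trend removed it was -0.43 (edgeR adjusted p = 1.6e-06).

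The change over 24 h was then compared within each culture. These comparisons use the same libraries as those above, so they are not independent of them. The 2D and 3D time comparisons contrast different libraries, but their tests share the scaling and the estimate of spread from all 12 libraries. In 2D, 6 of the 10 genes rose and 0 fell, against 17.4% and 17.0% of all genes tested (edgeR adjusted p under 0.05) and 34.4% in either direction. All libraries at 24 h were above all those at 0 h for 8 of the 10 genes (21.7% of all genes), and below them for 0 (21.4%). No gene of the 10 fell at an unadjusted p under 0.05 either. The genes that rose were Postn, Fn1, Col4a2, Col4a1, Col6a3 and Thbs1. The median over the 10 was 0.60 on the log2 scale, against 0.02 for all genes.

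Postn rose most in 2D, 3.86-fold (log2 1.95 ± 0.14, SE; edgeR adjusted p = 6.5e-08). Fn1 rose 2.35-fold (log2 1.23 ± 0.15, SE; edgeR adjusted p = 1.5e-05). Col4a2 rose 2.13-fold and Col4a1 1.88-fold (edgeR adjusted p = 4.1e-05 and 1.6e-04). Col6a3 rose 1.53-fold (edgeR adjusted p = 6.5e-04), whereas Col6a1 and Col6a2 were not called, at log2 0.09 (95% interval -0.10 to 0.29) and -0.0026 (95% interval -0.21 to 0.21). On the log2(TPM + 1) scale, where the median of all genes was 0.17, Col6a1 was called at 0.31 (limma adjusted p = 0.041), Sparc at 0.40 (limma adjusted p = 0.0036), and 8 of the 10 genes in all. Tnc was not called at log2 -0.02 (95% interval -0.31 to 0.27), nor was Sparc at 0.16 (95% interval -0.02 to 0.33).

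Thbs1 also rose in 2D, by 0.58 ± 0.11 on the log2 scale (SE; edgeR adjusted p = 9.9e-04). Long genes as a class were higher at 24 h in 2D. Tested genes were split into 10 equal classes by effective length. The median log2 level of the longest class minus that of the shortest, each taken against the gene's mean over all libraries, ran from -0.57 to -0.17 in the 2D libraries at 0 h and from -0.0073 to 0.71 at 24 h. In the spheroid libraries the same measure ran from -0.19 to -0.034 at 0 h and from -0.33 to 0.61 at 24 h. Thbs1, Col4a1, Col4a2, Fn1 and Tnc all have effective lengths above the 92nd percentile of tested genes. With the trend on length removed from each library, the rise of Thbs1 was log2 0.26 (edgeR adjusted p = 0.022), that of Col4a1 0.59 (edgeR adjusted p = 0.00041), that of Col6a3 0.38 (edgeR adjusted p = 0.0024), and Tnc fell by 0.39 (edgeR adjusted p = 0.0083). Sparc, a short transcript, rose by 0.36 in that fit (edgeR adjusted p = 3.4e-05). Postn rose by 1.86, Fn1 by 0.95 and Col4a2 by 0.76 in the same fit. The median over the 10 genes was then 0.37, against 0.04 for all genes. The part of the length shift in these rises beyond that fit was not tested.

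In spheroids over 24 h, 5 genes rose and 1 fell, against 23.8% and 24.7% of all genes tested (6 of 10 and 48.5% in either direction). The times did not overlap for 5 genes that were higher at 24 h (29.8% of all genes) and 1 that was lower (30.5%). Postn rose 8.80-fold (log2 3.14 ± 0.15, SE; edgeR adjusted p = 4.4e-11), the 91st highest fitted value of 14338. Tnc rose 1.80-fold, Col6a1 1.73-fold, Col6a2 1.58-fold and Col6a3 1.53-fold (edgeR adjusted p = 9.1e-05, 2.6e-06, 3.5e-05 and 2.8e-04). On the TPM values the rise of Col6a3 in spheroids was log2 1.13, against 0.61 on the counts. Thbs1 fell 1.71-fold, by 0.77 ± 0.11 on the log2 scale (SE; edgeR adjusted p = 3.1e-05). On the log2 scale the median was 0.34 over the 10 and -0.0043 over all genes.

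The collagen IV genes, Fn1 and Sparc were not called in spheroids over time. Their log2 changes were -0.04 for Col4a1 (95% interval -0.34 to 0.26), -0.01 for Col4a2 (95% interval -0.32 to 0.29), 0.08 for Fn1 (95% interval -0.23 to 0.39) and 0.02 for Sparc (95% interval -0.15 to 0.20). On the deposited log2(TPM + 1) values Sparc was called higher (log2 0.24, limma adjusted p = 0.036). On that scale Fn1 was at 0.41 (limma adjusted p = 0.053) and Col4a1 at 0.43, with its sign turned (limma adjusted p = 0.051).

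**Figure D3:**
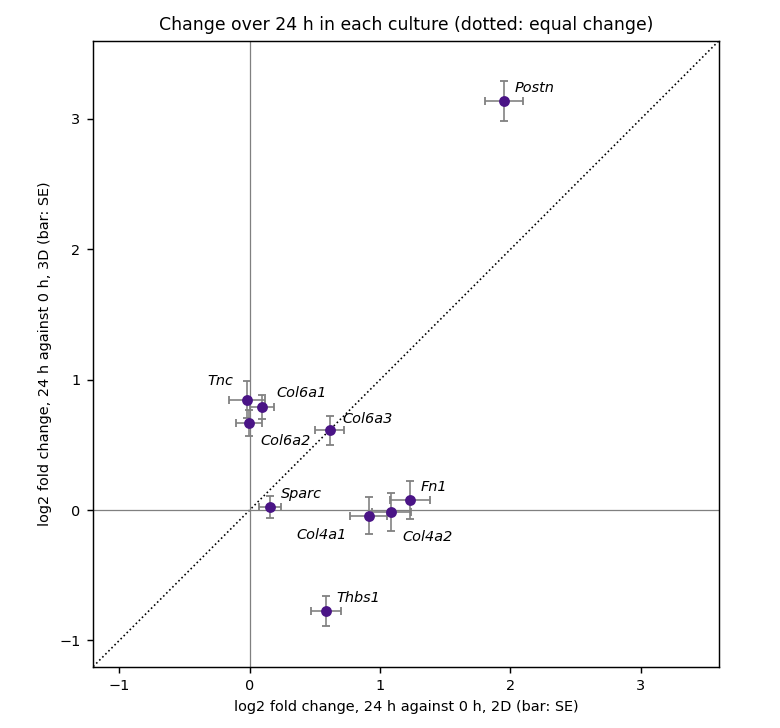
Log2 fold change of 24 h against 0 h in 2D (horizontal axis) and in 3D (vertical axis) for the 10 genes, with standard errors, and a dotted line where both would be equal. Postn rises in both cultures (1.95 and 3.14), Fn1 and the collagen IV genes lie to the right near 0 on the vertical axis, Tnc, Col6a1 and Col6a2 lie above 0 near 0 on the horizontal axis, and Thbs1 rises in 2D and falls in 3D.

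Whether the culture difference itself changed with time was tested as the difference of the changes. It was called for 8 of the 10 genes, against 39.1% of all genes tested, with 4 higher and 4 lower, against 18.7% and 20.5%. Thbs1 had a difference of -1.36 ± 0.16 (log2, SE; edgeR adjusted p = 4.4e-06), Fn1 of -1.15 ± 0.21 (edgeR adjusted p = 3.1e-04), Col4a2 of -1.10 ± 0.21 (edgeR adjusted p = 4.0e-04) and Col4a1 of -0.95 ± 0.20 (edgeR adjusted p = 0.0011). Postn had a difference of 1.19 ± 0.20, Tnc of 0.87 ± 0.20, Col6a1 of 0.69 ± 0.13 and Col6a2 of 0.67 ± 0.14 (edgeR adjusted p = 1.3e-04, 0.0020, 4.3e-04 and 0.0011). For Col4a1 the call ended with limma on the TPM values (log2 -0.57, limma adjusted p = 0.077), and the value was -0.63 with the length trend removed (edgeR adjusted p = 0.0027). Sparc was not called at -0.13 (95% interval -0.38 to 0.11), but was with the length trend removed (-0.39, edgeR adjusted p = 0.00023). The other calls held with that trend removed, at -1.01 for Thbs1, -0.82 for Fn1 and -0.79 for Col4a2. In that fit Postn was at 1.32, Tnc at 1.17, Col6a1 at 0.99 and Col6a2 at 0.96.

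Col6a3 parted from the other collagen VI chains in this test. On the counts its difference was -0.0023 (95% interval -0.34 to 0.33; edgeR adjusted p = 0.99). With limma on the log2(TPM + 1) values it was 0.43 and was called (limma adjusted p = 0.026). Counts and TPM can differ through the scaling between libraries, which moves all genes, and through the effective length used for a gene, which moves that gene.

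The effective length of each gene was read from the ratio of its count to its TPM, set so that the median of the 7934 genes with at least 100 counts in every library is 1. In RSEM it is the mean length of a gene's transcripts, weighted by their estimated shares, less an allowance for fragment length, so a change can come from another mix of transcripts. The measure and its 1.2-fold mark were picked with the data in view, and no test was made of it. Between 3D and 2D at 24 h, 3 of the 10 genes were at least 1.2-fold shorter in spheroids with no overlap between libraries, against 2.60% of all genes. The same 3 genes were so between 24 h and 0 h in spheroids, against 2.61%. They were Col4a1, Col6a3 and Fn1. None of the 10 was longer by this mark between the cultures at 24 h (1.37% of all genes) or over time in spheroids (3.00%). None passed in either direction between the cultures at 0 h (1.16% longer, 1.12% shorter) or over time in 2D (1.90% and 0.731%).

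Col4a1 had a relative effective length of 2.08 ± 0.0465 in spheroids at 24 h, against 2.78 ± 0.184 in those at 0 h. In attached cells it was 2.77 ± 0.156 at 24 h and 2.58 ± 0.0510 at 0 h. Col6a3 stood at 1.57 ± 0.0662 in spheroids at 24 h, against 2.15 ± 0.0277, 1.98 ± 0.130 and 1.85 ± 0.202 in the same order. Fn1, a gene known for alternatively spliced forms, stood at 1.87 ± 0.0510 in spheroids at 24 h, against 2.28 ± 0.0537, 2.27 ± 0.138 and 2.18 ± 0.140. In each case all spheroid libraries at 24 h lay below all 9 others. Sparc was shorter by less, with a change of -7.75% against 2D at 24 h and of -9.59% against spheroids at 0 h, also without overlap. The partner chains did not follow. Col4a2 differed by 1.47% between the cultures at 24 h, Col6a1 by 0.922% and Col6a2 by 0.740%, all with overlapping libraries. At 0 h Col6a3 was 15.8% and Col4a1 7.69% longer in spheroids than in attached cells, below the 1.2-fold mark but without overlap. The deposited tables give no counts per transcript, and the mix of transcripts was not analysed here.

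**Figure D4:**
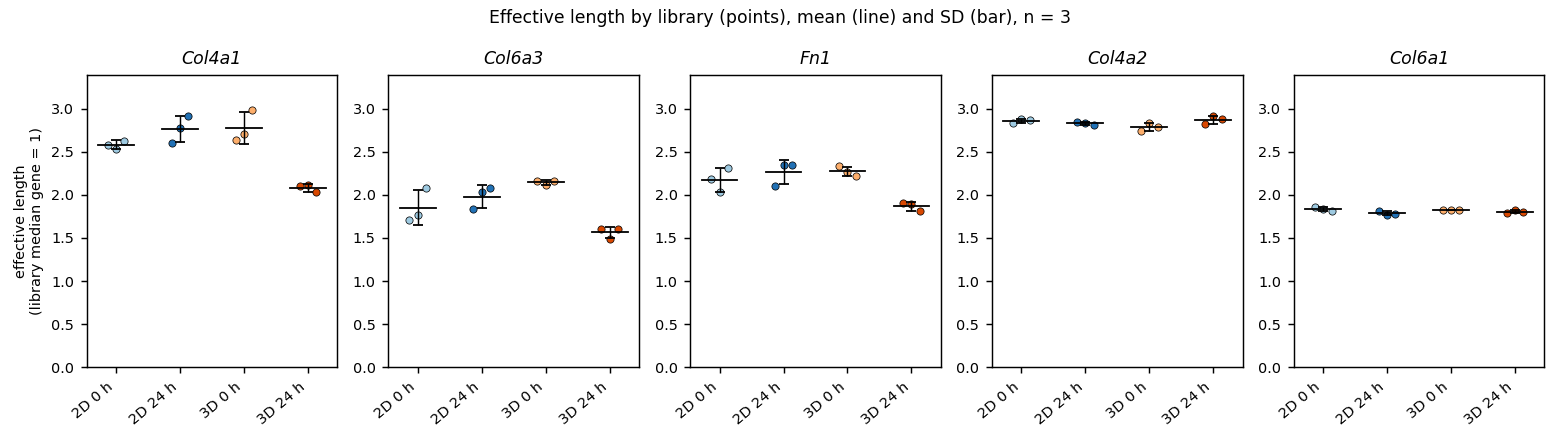
Relative effective length of 5 genes in the 12 libraries, with the median gene of each library set to 1 and all axes starting at 0. Points are libraries, the line is the mean and the bar is the SD (n = 3). Col4a1, Col6a3 and Fn1 are lower in spheroids at 24 h (means 2.08, 1.57 and 1.87), while Col4a2 and Col6a1 stay level.

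The balance between chains that assemble together was read as a ratio within each library, which no scaling between libraries can move. By counts, Col4a1 to Col4a2 was 2.25 ± 0.0835 at 0 h and 1.99 ± 0.259 at 24 h in attached cells. In spheroids it was 2.02 ± 0.0646 at 0 h and lay between 1.90 and 2.09 at 24 h. By TPM the ratio was 2.49 ± 0.131 and 2.03 ± 0.175 in attached cells, and 2.02 ± 0.0652 and 2.73 ± 0.132 in spheroids. By TPM the libraries overlapped in none of the comparisons of groups. Spheroids at 24 h were highest (2.624 to 2.881), but only just above attached cells at 0 h (2.355 to 2.616). The step from 0 h to 24 h in spheroids was without overlap by TPM and not by counts, which is the length shift of Col4a1 seen in another form.

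Col6a1 to Col6a2 was the steadiest pair, with mean TPM ratios from 1.32 ± 0.0365 in spheroids at 0 h to 1.44 ± 0.121 in spheroids at 24 h, and the libraries overlapped in all 4 comparisons of groups. Col6a3 to Col6a1 varied more. By counts it went from 0.450 ± 0.0629 to 0.646 ± 0.0147 in attached cells, where Col6a3 was called and the other chains were not. In spheroids it went from 0.416 ± 0.00906 to 0.368 ± 0.0171. By TPM it went from 0.445 ± 0.0241 to 0.585 ± 0.0357 in attached cells and from 0.353 ± 0.00775 to 0.424 ± 0.0187 in spheroids. The step from 0 h to 24 h in spheroids thus went down by counts and up by TPM. With 3 libraries against 3, an exact two-sided permutation test cannot give a p below 0.1, and each ratio with no overlap by TPM had that p (0.13 after adjustment over 20 tests).

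The TPM ratio of Thbs1 to Fn1 parted the cultures most. Attached cells had 2.79 ± 0.0359 at 0 h and 1.89 ± 0.261 at 24 h, and spheroids 0.378 ± 0.0213 and 0.176 ± 0.0275. By counts this ratio was 3.42 ± 0.207 and 2.16 ± 0.145 in attached cells, and 0.438 ± 0.0202 and 0.249 ± 0.0437 in spheroids. The TPM values also carry the shorter effective length of Fn1 in spheroids at 24 h. Postn to Tnc was higher at 24 h in both cultures by TPM, going from 0.866 ± 0.387 to 3.24 ± 0.229 in 2D and from 1.34 ± 0.169 to 6.57 ± 0.599 in 3D, with no overlap between the times.

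Likeness of pattern among the 10 genes was described by Pearson's correlation of log2 CPM over the 12 libraries, which fall into 4 groups and share their depth, so it mainly reflects group levels. Each of Col6a1 and Col6a2 was most like the other (r = 0.985), as were Col4a1 and Col4a2 (r = 0.977). Fn1 was most like Col4a2 (r = 0.869). Col6a3 was most like Postn (r = 0.878) and only then like Col6a1 (r = 0.779). For Thbs1 the closest was Col4a1 (r = 0.802). Tnc and Sparc had no close match, with highest values of 0.623 (Postn) and 0.683 (Thbs1).

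Part of the spread within groups was shared by several of the genes. Relative to its group's mean, Fn1 was 0.37 higher (log2 CPM) in 3D 24 h replicate 1 and 0.32 higher in 2D 0 h replicate 3, and 0.25 lower than the mean in 3D 24 h replicate 2. Col4a1 was 0.28 and 0.27 higher in the first pair of libraries, and Tnc 0.21 and 0.31 higher. In these libraries the longest genes stood 0.54 and 0.28 higher against the shortest than in their groups, while in 3D 24 h replicate 2 they stood lower, at -0.41. For 2D 24 h replicates 1 and 2, where the longest genes stood at -0.41 and 0.32, Fn1 deviated by -0.17 and 0.11. Postn did not follow this pattern: its farthest library was 2D 0 h replicate 2, at 0.43. The part of the length shift in the spread of each gene was not tested.

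**Figure D5:**
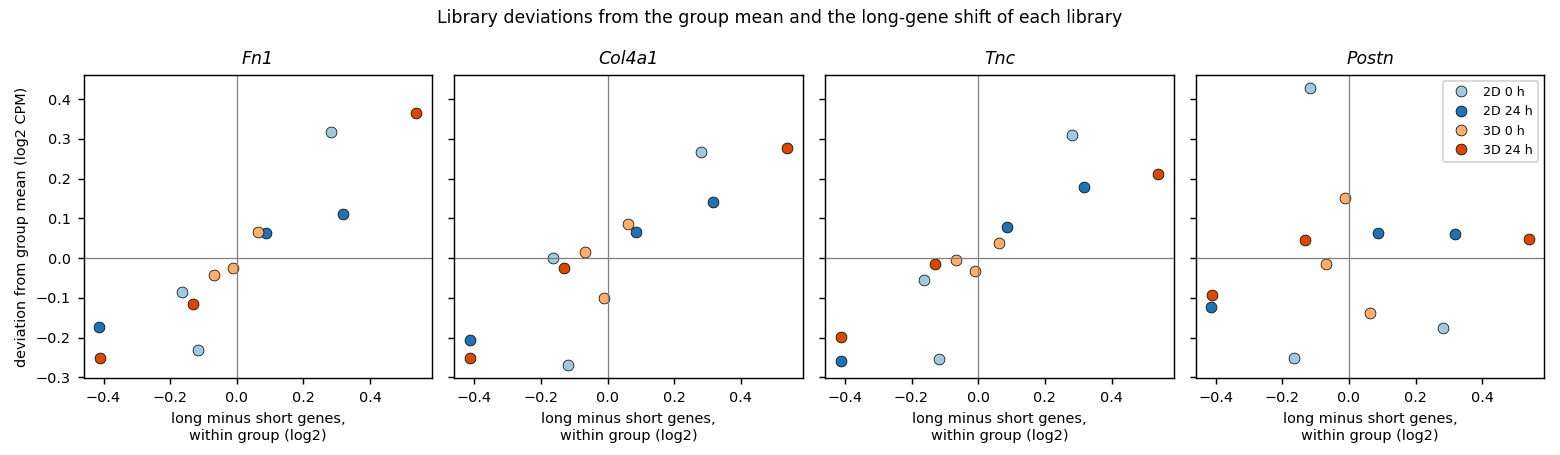
Deviation of each library from its group's mean (vertical axis, log2 CPM) for Fn1, Col4a1, Tnc and Postn, against the level of the longest class of genes minus that of the shortest, taken within the group (horizontal axis, log2). Points are the 12 libraries, coloured by group. Fn1, Col4a1 and Tnc are high in the libraries farthest to the right (0.54 for 3D 24 h replicate 1), and Postn shows no such order.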

How the data were processed

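Per the submitters' processing notes, reads were handled with FastQC 0.11.9, STAR and RSEM on the mouse build GRCm39. No source used here gives further versions, annotation or parameters. The tables deposited hold expected counts for each gene and log2(TPM + 1) values, with 1 column per library. Column names give day 0 and day 1, read as 0 h and 24 h. After rounding, edgeR 4.0.16 (R 4.3.3) was run on the counts: expression filter (minimum count 10), TMM scaling, and a quasi-likelihood fit to all 12 libraries with 1 term per group and 8 residual degrees of freedom. Genes were called at an adjusted p under 0.05. The SE is the log2 fold change divided by the square root of F, and 95% intervals use it. Alternatives used limma 3.58.1 and DESeq2 1.42.0. The steps were tested on simulated counts, which were drawn without the length shift between libraries. Few genes were changed in them, as many up as down, so the scaling was not tested under broad or uneven change. All 10 genes are named throughout. They, and 5 lists with 93 symbols that could not be matched to IDs, were chosen with earlier results of these data known. The effective length measure, the 5 ratios between genes and the motifs were picked with the data in view. No 2 libraries of a group agreed within sampling noise (chi-square per degree of freedom at least 4.69).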

Additional observations from a re-analysis of the deposited data

Results flagged for a closer look

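The spheroid against attached difference changed between 0 h and 24 h for 8 of the 10 genes, by the edgeR test of that difference over all genes. The log2 difference was -1.36 for Thbs1, -1.15 for Fn1, -1.10 for Col4a2 and -0.95 for Col4a1. It was 1.19 for Postn, 0.87 for Tnc, 0.69 for Col6a1 and 0.67 for Col6a2. For Thbs1 the gap widened in the same direction, while for Fn1 the sign at 0 h was the opposite of that at 24 h.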

How the results depend on the processing

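Settings were listed with earlier results known. Of 35 called values of the 10 genes (gene by comparison), 29 kept their call and sign under 11 other settings (10 for the difference of changes, which a fit on only the groups compared cannot give) and without each library, and 0 changed sign. The others were Col6a3, Fn1 and Tnc at 0 h, Col6a3 and Sparc at 24 h, and Col4a1 for the difference of changes. Of the 15 values not called, none kept sign and side throughout. Without 1 library, 4 to 6 genes were called at 0 h, 7 to 10 at 24 h, 6 over time in 2D and in 3D, and 8 for the difference of changes. Values that turned sign were not called, except Col6a3 for the difference of changes by TPM. At 0 h, Sparc was 0.0046 with upper-quartile scaling, and Sparc and Col4a2 were each 0.056 by log2(TPM + 1) or log2(TPM + 0.1). Over time in 2D, Col6a2 was 0.047 with upper-quartile scaling, 0.056 with library totals, 0.22 by either TPM scale and 0.017 fitted on the 2D libraries only. Tnc was 0.028 with upper-quartile scaling, 0.039 with library totals and 0.20 by either TPM scale, and Col6a1 was -0.13 with the length trend removed. In 3D, Col4a1 was 0.042 with library totals and 0.43 by either TPM scale, Col4a2 0.071 with library totals and 0.0049 on the 3D libraries only, and Sparc -0.028 with the length trend removed. For the difference of changes, Col6a3 was 0.014 with RLE scaling or DESeq2, 0.025 with library totals, 0.0062 with no filter, 0.013 with a minimum count of 50, 0.30 with the length trend removed and 0.43 by either TPM scale, where it was called (limma adjusted p = 0.026 and 0.028). Without 1 library, signs turned for Col4a2 (-0.27 to 0.038) and Postn (-0.0047 to 0.35) at 0 h, for Col6a2 (-0.11 to 0.10) and Tnc (-0.14 to 0.17) in 2D, for Col4a1 (-0.17 to 0.079), Col4a2 (-0.15 to 0.14), Fn1 (-0.10 to 0.20) and Sparc (-0.032 to 0.12) in 3D, and for Col6a3 (-0.14 to 0.11) in the difference. The causes were not tested, except that TPM follows effective length and its own scaling by construction. Against TMM scaling, the median of all genes moved by over 0.1 with upper-quartile scaling at 0 h (by 0.12), library totals at 24 h (0.12), log2(TPM + 1) at 0 h (0.11) and over time in 2D (0.14), and log2(TPM + 0.1) at 0 h (0.14), over time in 2D (0.19) and for the difference (-0.11). Genes higher were 50.4% of calls at 0 h, 60.7% with upper-quartile scaling and 62.0% by log2(TPM + 1). At 24 h they were 46.2%, and 57.4% with library totals. Over time in 2D they were 50.5%, and 69.7% by log2(TPM + 1). No pairing by replicate number was seen: 0 of 18 same-number pairs had a correlation of deviations above 0.1. Among the 12 libraries, 0 correlated best with a library of its own number. Such low correlations cannot show that same-number libraries had no culture or batch in common. With the replicate block, genes called at 0 h went from 6564 to 6127 and the 10 genes' calls from 6 to 5, Fn1 having log2 0.39 (edgeR adjusted p = 0.057). Depth limits none of the 10 genes.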
